A study of Mus musculus with 14 samples.

Results

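The 150 array probes described here were those whose signal from mouse embryonic stem (ES) cell RNA stood farthest above a common reference on every array of the study. They were chosen by measured values. Of 42006 probes on the array, 21727 were well above background in both dyes on all 14 arrays, and the 150 with the highest lowest ratio of sample to reference over those arrays were kept. The ratio used for the choice, here the extraction ratio, is the log2 of sample over reference as the scanner's extraction software computed it, less the median of its array. Because these values chose the members, their height above the reference is given as a description with no test.

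The study hybridised 7 groups of LIF-cultured ES cells, with 2 arrays in each. Standard day 3 was the untreated subline MC1-ZE3 after 3 days in culture, and control day 3 was the same subline as the untreated arm of a treatment experiment. RA 48 h was MC1-ZE3 after 48 h in 50 nM retinoic acid (RA), and LY294002 48 h was MC1-ZE3 after 48 h with the phosphoinositide 3-kinase inhibitor LY294002, a dose labelled 10 nM, in which the unit is doubtful. Day 4 colonies came from MC1-ZE16 and day 7 colonies from ES MC1, both in 50 nM RA and both picked by hand according to the series' design. Passage 10 was MC1-ZE3 that had seen RA for 7 days and then grew for 10 passages without it. The strain is labelled 129SvEv-Tac for the day 7 colonies and 129/Sv for the other groups. The colony groups thus differ from standard day 3 in the line as well as in treatment. The sources conflict on picking: the extraction protocols name picked and pooled colonies for every group except day 7, for which they name a well, so which groups hold only picked cells is uncertain. Whether both arrays of a group stem from different cultures is not stated by the labels, and the p-values rest on the spread between these arrays, which may be technical.

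ES cells are kept undifferentiated by a network of transcription factors together with LIF, a cytokine that signals through STAT3, and RA is a vitamin A derivative that switches on differentiation genes through nuclear receptors. In a 2-colour array the sample and a reference compete on the same spot, so a high ratio marks RNA that is rich in the sample compared with the reference. The reference here was a pool of 11 lines of many tissues, to which RNA of 129ES cells had been added at 1 part to 2. RNA that no other line holds, at the level of those ES cells, would by this arithmetic lie 3-fold, or 1.58 on the log2 scale, above the mixture.

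The deposited files give a probe an identifier and a sequence of 60 bases but no gene, so members are called by their identifiers. Of 186 gene symbols in lists of pluripotency, differentiation and cell type genes, 0 were among the probe names, and neither the labelled cell type nor those lists could be checked by markers.

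Sequence was the only annotation at hand, and 13 of the 150 members fell into 5 sets that share sequence with each other (BLAST, E value up to 1e-4, word size 11), while 137 shared none. The largest set was a family of 4 related but not identical probes. They are shown whole because a short stretch is common to them and because all 4 rose after RA for 48 h and in day 4 colonies. Capitals mark the 8 bases ACTCAGAG common to all 4.
Z00060019-1: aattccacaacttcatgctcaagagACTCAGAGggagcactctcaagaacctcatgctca
Z00060967-1: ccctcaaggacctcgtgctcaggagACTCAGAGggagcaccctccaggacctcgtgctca
Z00072518-1: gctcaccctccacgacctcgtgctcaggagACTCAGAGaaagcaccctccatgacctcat
Z00072933-1: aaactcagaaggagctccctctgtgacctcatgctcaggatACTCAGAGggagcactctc
Aligned pairs of the family were 80.8% to 91.4% identical over 35 to 53 bases. Z00060967-1 also carried a 15-base stretch at 2 places 39 bases apart, for which the set is called the repeat family below. An inner repeat of at least 12 bases was present in 68 of the 21727 probes (0.313%), and Z00060967-1 was the only member among them.

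The other 4 sets were probes whose sequences overlap exactly, an end of the first with the start of the next. They are shown by their shared stretch, cut to its first 30 bases where longer, since such probes repeat a measurement of the same stretch.
Z00025473-1, Z00055583-1 and Z00074877-1: aggatggcttcttc
Z00004495-1 and Z00054313-1: gcaatttcctactcaccaagactcccaaag
Z00026338-1 and Z00074905-1: agcttggccgtgtggacttagaggaaaccc
Z00048934-1 and Z00075430-1: ccgaagaagatgccaccagaatggactact
The shared stretches ran to 14 bases for the set of 3 and to 53, 42 and 36 bases for the pairs.

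A further probe carried a known coding signature. Capitals in Z00025747-1 mark a match to ACNGGNGANAANCC, codons of the linker that joins neighbouring C2H2 zinc fingers, a DNA-binding fold of transcription factors.
Z00025747-1: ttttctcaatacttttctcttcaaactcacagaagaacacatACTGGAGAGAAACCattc
This motif was present, in the orientation of the probe, in 1 member (0.667%), in 0.0921% of the 21727 probes clear of background in both dyes and in 0.0548% of all probes. On the opposite strand it was in 0 members and in 0.00460% of the 21727. A second zinc-finger stretch, GGNAANGCNTT, was in 2 members (1.33%), against 0.156% of the 21727 and 0.124% of all probes. On the opposite strand it was in 0 members and in 0.143% of the 21727, so a match alone does not mark a zinc-finger probe. The members that hold it are Z00077267-1 and Z00047147-1, shown by their first 30 bases, which include the stretch.
Z00077267-1: aatgtgggaaagccttttcccgtcaaaata
Z00047147-1: atgtttgtggaaaggcctttatccggaaca
Members resembled 32851 promoter windows of RefSeq (assembly GRCm38.p6) in 6 cases and 1005 miRNA hairpins in 0 cases. In 4 of the 6 the windows belonged to predicted genes that lie mostly on chromosome 12. Z00025747-1 matched the windows of Gm38704, Gm46305, Gm46340, LOC115488002 and LOC115488023 there, and those of Gm19792 and LOC115486435 on chromosome 13. Z00063473-1 matched Gm29758, Gm46305, Gm46340 and LOC115488023, Z00077267-1 matched Gm38704, Gm46340 and LOC115488002, and Z00056231-1 matched LOC115488002. Identities were 75.9% to 90.7%, so these are relatives in sequence and not names for the probes.

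As a set the members were poorer in G and C than the array, with a median of 40.8% against 45% for the 21727 probes and 43.3% for all probes. The polyadenylation signal AATAAA stood in 4% of the members, against 8.04% of the 21727 and 6.93% of all probes. On the opposite strand it stood in 2.67% of the members and in 3.16% of the 21727. A reading frame free of stop codons in the probe's own orientation was open in 86% of the members, 82.3% of the 21727 and 83.4% of all probes.

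The members differed widely in height above the reference and in how steady it was. The 6 members with the highest lowest ratio are shown by their first 30 bases.
Z00074846-1: gggaagggccttgactctggagacttgggg
Z00029522-1: ataatcatttaagaaaataactgagagtct
Z00037614-1: aacctccttctgcaagttcagacttatatg
Z00021994-1: ttaaaatagtcattccggagagtcagggaa
Z00042912-1: aagtttgcctcctggataaaagacactatg
Z00010141-1: aatcctggtattaaaaagagtgtaatcaca
On the extraction ratio Z00074846-1 ran from 3.28 in a day 4 colony array to 4.09 in a standard day 3 array, with a median of 3.61 over the 14 arrays. Z00029522-1 held the narrowest band of the 6, from 2.70 to 3.12 with a median of 2.89. Neither gave a group that stood apart from all the others. Z00037614-1 stood at 4.52 and 4.58 in the day 4 colonies, while its other 12 arrays lay between 2.63 and 3.17. Z00021994-1 was at its lowest with 2.53 on both RA 48 h arrays and at its highest with 3.45 and 3.56 in the day 7 colonies. Z00042912-1 was highest with LY294002, at 3.63 and 3.54, and lowest in control day 3, at 2.37 and 2.35. On the loess ratio, the scale of the comparisons below, standard day 3 was the lowest group of both. There Z00021994-1 read 1.53 and 1.70, against 1.84 and 1.81 after RA for 48 h. Z00042912-1 read 1.46 and 1.34, against 1.71 and 1.61 in control day 3. Z00010141-1 split the groups into a high set, the control, RA 48 h and LY294002 arrays at 4.18 to 4.43, and a low set, the remaining arrays at 2.28 to 3.24.

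The extraction ratio of the members had medians from 1.68 to 3.61 over the arrays, with a median of 2.24 over members, and reached 4.97. The arithmetic limit of 1.58 was passed by the median of all 150 and by the lowest array of 89. The choice by a high lowest ratio favours this. The limit is a rough mark, since the ratio is centred on the median of each array. The lowest array lay in the LY294002 group for 31 members, in standard day 3 for 31, in day 7 colonies for 23, in passage 10 for 22, in day 4 colonies for 20, in RA 48 h for 12 and in control day 3 for 11. The last members kept were Z00004495-1, Z00004601-1 and Z00039681-1, with lowest ratios of 1.424, 1.422 and 1.419. The probes just outside were Z00030679-1, Z00021540-1 and Z00076281-1, at 1.419, 1.418 and 1.415, so the edge of the set is arbitrary.

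All comparisons between groups used a second scale, the loess ratio: log2 of sample over reference after background correction with an offset of 50 and loess normalization within each array. The offset compresses low signals, and the members were dim in the reference. Their median Cy5 signal, from the reference, lay at the 13.8th percentile of the 21727 probes, while their median Cy3 signal, from the sample, lay at the 37.8th. A reference signal that is low beside the sample signal follows from the choice by ratio. On this scale 0 of the 150 had a value below 0 on any array, values ran from 0.26 to 4.11, and the medians over arrays ran from 0.48 to 2.66 with a median of 1.48. The limit of 1.58, a rough mark here too, was passed by the median of 62 members and by the lowest array of 7. Under 2-fold on at least 1 array were 85. In bulk RNA, fewer cells of a type and less RNA per cell cannot be told apart. The 3 brightest members, by mean log2 Cy3 signal after quantile normalization, were Z00024965-1, with a raw Cy3 signal of 8857 to 23340 and a median of 15723, Z00021082-1 with a median of 5562 and Z00055583-1 with a median of 5667.

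**Figure D1:**
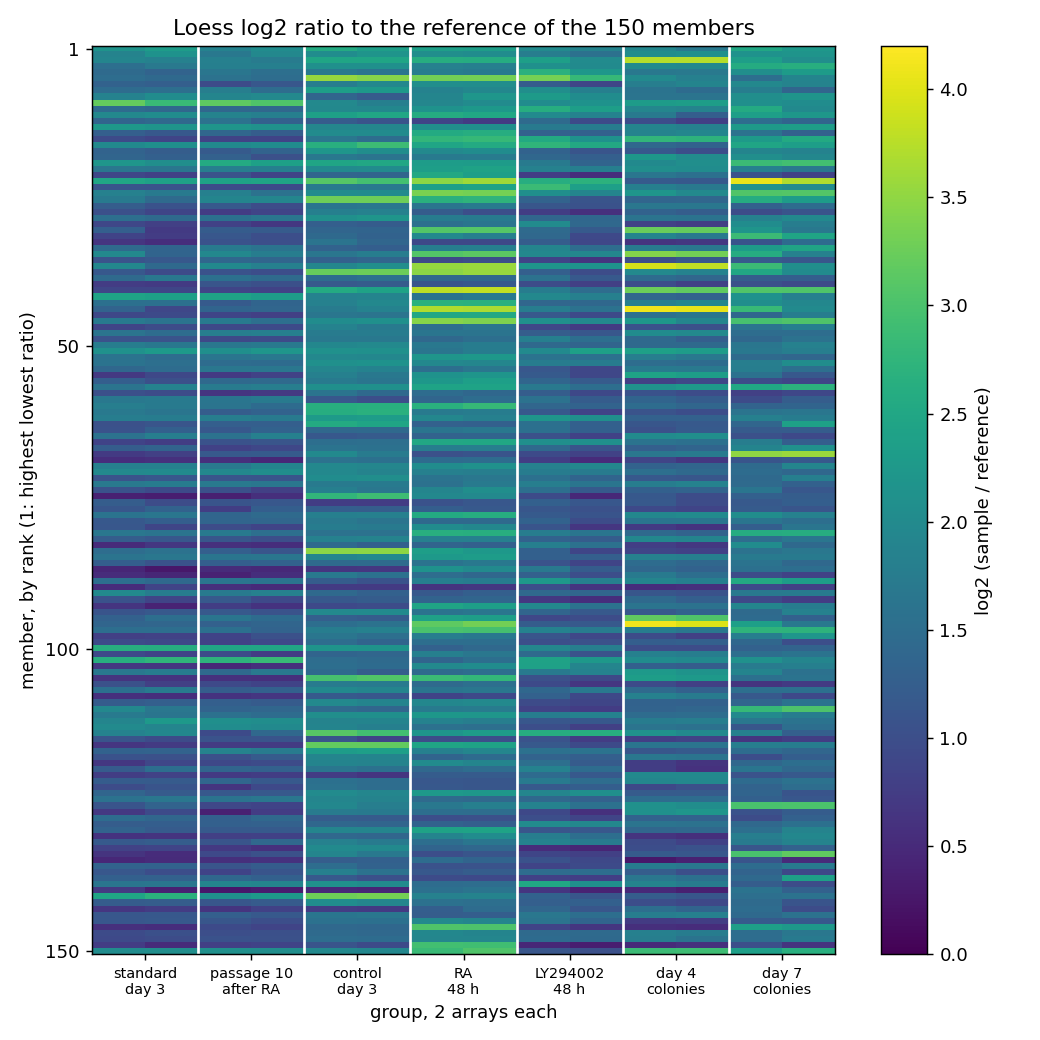
Loess log2 ratio of sample to reference (colour) for the 150 members (rows, ranked by their lowest extraction ratio) on the 14 arrays (columns, 2 per group). Values run from 0.26 to 4.11 with none below 0, and bright rows stand out mostly in control day 3, RA 48 h and the colony groups.

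The members' median loess ratio differed between groups. It was 1.27 on both standard day 3 arrays, 1.26 and 1.28 in passage 10, 1.77 and 1.72 in control day 3, 1.82 and 1.81 after RA for 48 h, 1.44 and 1.28 with LY294002, 1.58 and 1.50 in day 4 colonies and 1.59 and 1.64 in day 7 colonies. The share of all probes well above Cy3 background also differed, with group means of 58.0%, 57.4%, 74.0%, 71.9%, 67.2%, 58.5% and 66.2% in the same order, and its part in the members' level was not tested. Slides are tied to groups in most comparisons: control and RA 48 h share a slide, LY294002 and the colony groups lie on slides of their own, and standard day 3 and passage 10 have 1 array each on the same pair of slides. The arrays were scanned on 4 dates. Control, RA 48 h and LY294002 arrays share a date, and the day 7 colonies have a date of their own. Standard day 3 and passage 10 are split over the remaining dates, and the day 4 colonies share the later of these.

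Of the 150 members, 147 differed among the 7 groups (limma F test, adjusted p under 0.05). This was also true of 84.5% of the 31053 probes tested and of 95% of the 21727 clear in both dyes, so a difference somewhere was the rule on these arrays. The members varied more widely than the array: the median range of the 7 group means was 1.08, against 0.71 for tested probes and 0.83 for those clear in both dyes. A range of at least 2-fold was seen in 88 members (58.7%), in 30.01% of tested probes and in 37.1% of those clear in both dyes. Their spread between replicate arrays was wider too, with a median within-group SD of 0.11 against 0.084 and 0.080. Across arrays the members' Cy3 signal had a median SD of 0.39 on the log2 scale and their Cy5 signal 0.12. Tested probes had 0.29 and 0.13, and those clear in both dyes 0.34 and 0.14. More variation in the sample channel was thus general on these arrays and not particular to the members.

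The highest group mean fell in RA 48 h for 44 members (29.3%) and in control day 3 for 40 (26.7%), where 16.8% and 15.4% of tested probes had theirs. It fell in day 4 colonies for 23 (15.3%, against 17.95% of tested probes), in day 7 colonies for 21 (14%, against 15.3%) and with LY294002 for 8 (5.33%, against 15.4%). Standard day 3 and passage 10 were highest for 7 members each (4.67%), against 6.29% and 12.9% of tested probes. The lowest group mean was in passage 10 for 39 members (26%, against 14.1% of tested probes), with LY294002 for 34 (22.7%, against 16.6%) and in standard day 3 for 29 (19.3%, against 8.998%). It was in day 4 colonies for 27 (18%), near the 18.4% of tested probes. Day 7 colonies were lowest for 9 (6%, against 13.8%), control day 3 for 8 (5.33%, against 15.7%) and RA 48 h for 4 (2.67%, against 12.4%). The first 3 principal components of the members' loess ratios took 45.5%, 21.2% and 12.6% of the variance. Standard day 3 and passage 10 lay together at the low end of the first component and RA 48 h at its high end. The second set day 4 colonies against control day 3, and the third set day 7 colonies apart.

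The steadiest members were Z00059881-1, Z00057042-1, Z00048533-1 and Z00047147-1. Z00059881-1 ran from 1.17 to 1.69 over the 14 arrays, with group means 0.32 apart, and was not called among groups (F test, adjusted p = 0.22 by limma). Z00057042-1 ran from 0.50 to 1.01 and was not called either (adjusted p = 0.13 by limma). It was also the only member with no call in any of the 6 comparisons. Z00048533-1, between 0.77 and 1.33, was the third with no F call (adjusted p = 0.11 by limma), though not every comparison left it uncalled. Z00047147-1, which carries a match to GGNAANGCNTT, ran from 0.64 to 1.09 with group means 0.38 apart.

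At the other end were Z00012088-1, Z00060019-1, Z00065659-1 and Z00074861-1. Their first 30 bases are shown because they carry the largest changes, beside the whole sequence of Z00060019-1 above.
Z00012088-1: gtaccattctgtgactaaatatccaactta
Z00065659-1: tcctactgaaattacttgtccttttctagt
Z00074861-1: gccgagcaaagatgaaaaggtcccgtagag
Z00012088-1 was at 0.88 on both standard day 3 arrays and at 0.86 and 0.83 in passage 10. It stood at 2.57 and 2.42 in control day 3, 3.78 and 3.82 after RA for 48 h, 1.77 and 1.51 with LY294002, 3.26 and 3.18 in day 4 colonies and 3.06 and 3.04 in day 7 colonies. Standard day 3 and passage 10 were thus its low groups and no other group overlapped them. Z00065659-1 lay between 1.17 and 1.59 in standard day 3, passage 10, control day 3 and LY294002 arrays. It was at 3.15 and 3.31 after RA for 48 h, 4.11 and 3.98 in day 4 colonies and 2.38 and 1.68 in day 7 colonies. All 6 arrays of RA-treated cells were above all 8 others. Z00074861-1 lay between 0.71 and 1.99 everywhere but in the day 7 colonies, where it reached 3.50 and 3.57.

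**Figure D2:**
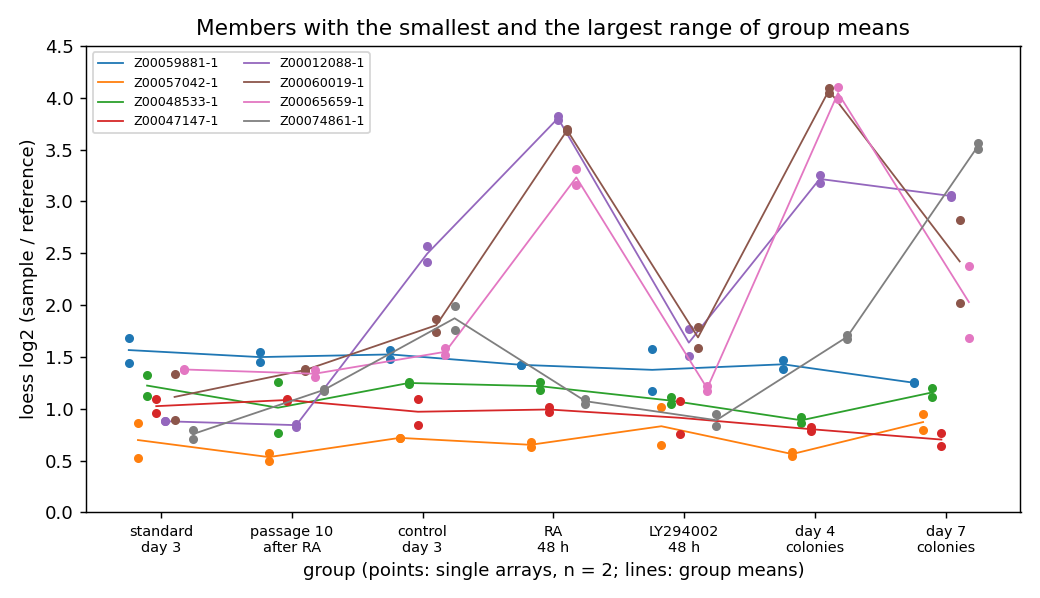
Loess log2 ratio of sample to reference for the 4 members with the smallest and the 4 with the largest range of group means, by group (points are single arrays, n = 2 per group, and lines join group means only to guide the eye). The steady members stay between 0.50 and 1.69, and the variable ones move between 0.71 and 4.11.

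The 4 members of the repeat family moved alike, with pairwise correlations of 0.970 to 0.994 over the 14 arrays, given as a description of probes that may cross-hybridise through their shared sequence. Z00060019-1 was at 1.33 and 0.89 in standard day 3, 1.36 and 1.39 in passage 10, 1.74 and 1.87 in control day 3 and 1.79 and 1.59 with LY294002. It stood at 3.70 and 3.67 after RA for 48 h, 4.09 and 4.05 in day 4 colonies and 2.82 and 2.02 in day 7 colonies. Z00060967-1 had 1.93 and 2.08 in control day 3, 3.54 and 3.58 after RA for 48 h, and 3.93 and 3.80 in day 4 colonies. Z00072518-1 had 1.65 and 1.78, 3.08 and 3.15, and 3.41 and 3.31 in the same groups. Z00072933-1 had 1.37 and 1.35, 3.07 and 3.09, and 3.24 and 3.21. All 4 were therefore highest in day 4 colonies, with RA 48 h next and above every array of the other groups.

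**Figure D3:**
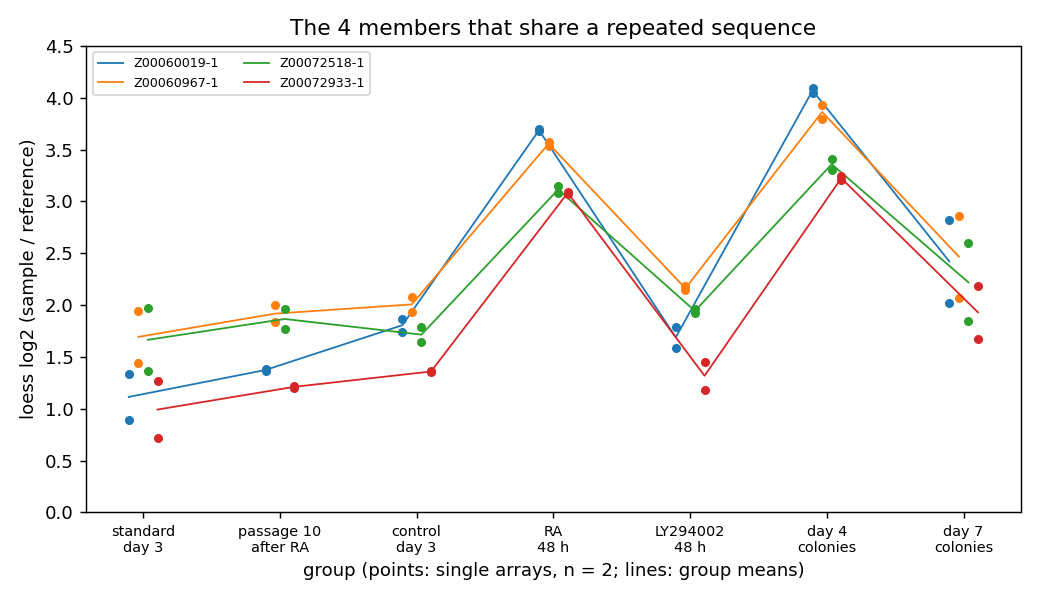
Loess log2 ratio of sample to reference for the 4 members of the repeat family, which share sequence, by group (points are single arrays, n = 2 per group, and lines join group means only to guide the eye). All 4 stand above 3 in RA 48 h and day 4 colonies, and their day 7 arrays lie between 1.68 and 2.86.

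Overlapping probes gave near-equal profiles. The set of 3 had correlations of 0.994 to 0.995 over the 14 arrays, and the pairs had 0.984, 0.996 and 0.964. In control day 3 the set of 3 read 2.04 and 2.11 by Z00025473-1, 1.77 and 1.85 by Z00055583-1 and 2.05 and 2.02 by Z00074877-1. After RA for 48 h they read 3.44 and 3.39, 3.00 and 2.96, and 3.35 and 3.32, so all 3 put RA above control by a like amount. For the pair that shares 42 bases, RA 48 h and LY294002 arrays were both above control: Z00074905-1 read 0.93 and 0.98 in control, 2.46 and 2.36 after RA and 1.96 and 1.59 with LY294002.

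The members whose profile was most like the median profile of the set over the 14 arrays were Z00070062-1 (r = 0.965), Z00076335-1 (r = 0.957) and Z00074134-1 (r = 0.930). Z00070062-1 was at 1.16 and 0.96 in standard day 3, 1.06 and 0.99 in passage 10, 3.22 and 3.25 in control day 3, 3.47 and 3.56 after RA for 48 h, 1.27 and 0.98 with LY294002, 1.97 and 1.87 in day 4 colonies and 2.52 and 2.03 in day 7 colonies. On the loess ratio control day 3 and RA 48 h were its high groups, as they were for the set. The order of groups depended on the scale. By extraction ratio the members' median was 2.39 on both day 4 colony arrays, 2.38 on both RA 48 h arrays and 2.36 and 2.28 in control day 3.

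The 6 comparisons below share baselines: RA and LY294002 at 48 h are each set against the same control day 3 arrays, and the other 4 against the same standard day 3 arrays. Their values for a member stand side by side and are not independent. The rule treated all arrays alike and so set no direction between groups. It did ask for a high lowest value on these same arrays, which bounds how far a member could fall. A member rose or fell where its adjusted p was under 0.05 by limma, adjusted over the 31053 probes tested. All 150 were among these.

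The comparison of RA 48 h with control day 3 asks what RA did in the same subline within a treatment experiment, on 1 slide. Of the 150 members 50 rose (33.3%) and 37 fell (24.7%), where 22.4% of all tested probes rose and 15.9% fell. At 2-fold or more 18 rose (12%) and 3 fell (2%), against 2.71% and 0.895% of tested probes. Among the 18 were the 4 probes of the repeat family, the overlapping set of 3 and the pair that shares 42 bases. The 18 are therefore not all separate measurements. The members' median change was 0.02, against 0.01 for all tested probes, so the set spread in both directions around no shift. Other scalings gave a median of -0.04 to 0.01.
Z00004601-1: cccctaattgccatcccaatggtctgagta
Z00049222-1: tggcaagtttacagtggattttgagagaga
Z00030086-1: agaatagactcagtgacctgatgaagttca
Among the 3 largest rises and 3 largest falls, these 3 are shown here. Z00004601-1 read 1.097 and 0.951 in control and 2.94 and 2.91 after RA, a rise of 1.90 (SE 0.11, 3.73-fold, adjusted p = 6.44e-08 by limma). Its other 10 arrays lay between 0.35 and 1.01, so RA 48 h was its single high group. Z00060019-1 of the repeat family read 1.74 and 1.87 in control and 3.70 and 3.67 after RA, a rise of 1.88 (SE 0.20, 3.68-fold, adjusted p = 9.53e-06 by limma). Z00072933-1 of the same family rose by 1.72 (SE 0.17, adjusted p = 5.13e-06 by limma). The family's remaining members also rose, Z00060967-1 by 1.55 and Z00072518-1 by 1.40. The 3 falls of at least 2-fold were Z00049222-1, Z00076669-1 and Z00030086-1. Z00049222-1 read 3.27 and 3.32 in control and 1.85 and 1.89 after RA, so it fell by 1.43 (SE 0.09, 2.69-fold, adjusted p = 9.25e-08 by limma). Z00030086-1 read 3.48 on both control arrays and 2.35 and 2.25 after RA, so it fell by 1.18 (SE 0.11, adjusted p = 2.47e-06 by limma). Z00076669-1 fell by 1.22 (SE 0.22, adjusted p = 0.000713 by limma), from 2.57 and 2.47 to 1.31 and 1.29. Members were named only where the arrays of both groups lay apart, so the lack of overlap in these follows from the choice.

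**Figure D4:**
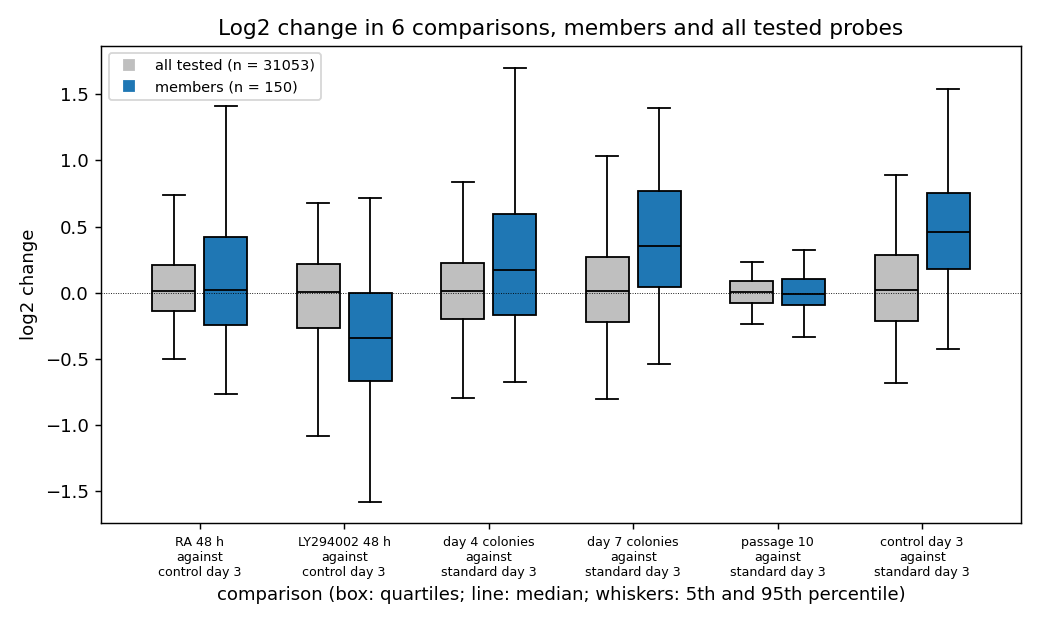
Log2 change of the 150 members (blue) and of all 31053 tested probes (grey) in the 6 comparisons (box: quartiles, line: median, whiskers: 5th and 95th percentile). The members' median lies at -0.34 for LY294002, at 0.46 for control against standard day 3 and at -0.01 for passage 10.

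LY294002 48 h against control day 3 compares cells given the phosphoinositide 3-kinase inhibitor with untreated cells of the same subline, and here the members fell. The LY294002 arrays were hybridised on a different slide from the control arrays, and the part of the slide in this fall was not tested. The group mean of the members' median loess ratio was 1.36 with LY294002, 1.74 in control day 3 and 1.27 in standard day 3. Of the 150, 20 rose (13.3%) and 85 fell (56.7%), where 24.5% of tested probes rose and 28.1% fell. At 2-fold or more 0 rose and 13 fell (8.67%), against 1.42% and 5.74% of tested probes. The members' median change was -0.34, against 0.00 for all tested probes.
Z00074494-1: ccccagtctcgttagaaatgagtatactct
Z00070062-1: aaaatgagagaggaccgttggacaacgatt
Z00058592-1: gtatttacttgcaagattcagaggtaaccg
Z00051646-1: ttggttgagatcaatccagttggttttggg
The first pair of these fell farthest beside Z00030086-1, and the second pair rose most. Z00030086-1 went from 3.48 on both control arrays to 1.28 and 0.88 with LY294002, so it fell by 2.40 (SE 0.11, 5.27-fold, adjusted p = 1.62e-09 by limma). Z00074494-1 went from 3.19 and 3.20 to 1.17 and 0.94 and fell by 2.13 (SE 0.07, 4.39-fold, adjusted p = 1.52e-10 by limma). Z00070062-1 went from 3.22 and 3.25 to 1.27 and 0.98 and fell by 2.11 (SE 0.14, 4.33-fold, adjusted p = 4.67e-08 by limma). The standard day 3 arrays of the same subline, from another experiment, were at 1.50 and 1.58 for Z00030086-1, 0.67 and 0.73 for Z00074494-1 and 1.16 and 0.96 for Z00070062-1. Z00058592-1 went from 1.22 and 1.06 to 2.28 and 1.85, a rise of 0.92 (SE 0.12, adjusted p = 2.86e-05 by limma). Z00051646-1 rose by 0.91 and Z00034381-1 by 0.87.

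The size of this fall depended on scaling. Agilent's processed signals gave 25 rises and 55 falls, median centring 22 and 49, and Cy3 alone 29 and 60, and the median change was -0.08 to -0.14. At 2-fold the 13 falls and 0 rises depended on the array, with 24 falls without replicate 1, 11 falls and 5 rises without replicate 2, and up to 11 rises with Agilent's processed signals.

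Day 4 colonies against standard day 3 asks how colonies grown in RA compare with untreated cells. Of the 150, 68 rose (45.3%) and 33 fell (22%), where 25.2% of tested probes rose and 23.2% fell. At 2-fold or more 18 rose (12%) and 4 fell (2.67%), against 3.41% and 3.07% of tested probes. These 18 include the 4 probes of the repeat family and the pair that shares 42 bases, so not all are separate measurements. The members' median change was 0.17, against 0.01 for all tested probes. Median centring gave 45 rises and 17 falls.
Z00071921-1: ctgaaataatccatttcaaaggaaaactat
Z00058911-1: ggtgggtccttgtagctcttttcattagct
This pair fell in day 4 colonies from a high level in standard culture. Z00060019-1 of the repeat family rose most, from 1.33 and 0.89 to 4.09 and 4.05, a change of 2.96 (SE 0.20, 7.76-fold, adjusted p = 8.30e-08 by limma). Z00065659-1 went from 1.37 and 1.38 to 4.11 and 3.98, a change of 2.67 (SE 0.16, 6.35-fold, adjusted p = 2.44e-08 by limma). Z00012088-1 rose by 2.34 (SE 0.08, 5.06-fold, adjusted p = 3.74e-10 by limma). These 3 had also risen after RA for 48 h. Z00071921-1 went from 2.63 and 2.61 to 0.97 on both arrays and fell by 1.65 (SE 0.07, 3.14-fold, adjusted p = 8.92e-10 by limma). Z00049222-1 fell by 1.40 (SE 0.09, adjusted p = 5.03e-08 by limma), as it had with RA and with LY294002 at 48 h. Z00058911-1 went from 2.49 and 2.40 to 1.19 and 1.15 and fell by 1.27 (SE 0.10, adjusted p = 3.75e-07 by limma). It had 3.09 and 2.95 in control day 3 and 4.06 and 3.70 in day 7 colonies, so day 4 colonies were its low group.

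Day 7 colonies against standard day 3 asks the same of later colonies. Of the 150, 88 rose (58.7%) and 19 fell (12.7%), where 28.4% of tested probes rose and 25.1% fell. At 2-fold or more 23 rose (15.3%) and 2 fell (1.33%), against 5.34% and 3.05% of tested probes. These 23 include the overlapping set of 3 and the pair that shares 42 bases, so not all are separate measurements. The members' median change was 0.35, against 0.02 for all tested probes, and it was 0.19 with Agilent's processed signals, 0.20 with Cy3 alone and 0.51 with median centring.
Z00070362-1: catgttggcttctcttccagttgtatagta
Z00029220-1: ggttactcagtcacgtttccttgtgcagac
The first of these rose beside Z00074861-1 and the second fell. Z00074861-1 went from 0.71 and 0.80 to 3.50 and 3.57, a change of 2.78 (SE 0.08, 6.86-fold, adjusted p = 3.11e-11 by limma). Z00070362-1 went from 0.64 and 0.53 to 2.99 and 3.18, a change of 2.50 (SE 0.09, 5.67-fold, adjusted p = 2.12e-10 by limma). In day 4 colonies this pair stood lower, at 1.67 and 1.71 and at 1.21 and 1.14. Z00012088-1 rose by 2.17 (SE 0.08, adjusted p = 3.75e-10 by limma). Z00071921-1 fell by 1.29 (SE 0.07, adjusted p = 5.08e-09 by limma), from 2.63 and 2.61 to 1.31 and 1.34. Z00049222-1 fell by 1.02 (SE 0.09, adjusted p = 7.40e-07 by limma). Z00029220-1 went from 3.20 and 2.85 to 2.09 and 2.04 and fell by 0.97 (SE 0.10, adjusted p = 3.92e-06 by limma). Agilent's processed signals gave 61 rises and 33 falls, Cy3 alone 66 and 25, and median centring 88 and 7. In both colony comparisons line, slide and treatment cannot be told apart, nor can scan date for the day 7 colonies.

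Passage 10 against standard day 3 asks what was left after RA had been withdrawn, and little moved. Of the 150, 5 rose (3.33%) and 5 fell (3.33%), where 1.66% of tested probes rose and 1.76% fell. At 2-fold or more 0 members rose and 0 fell, against 0.0483% and 0.0483% of tested probes, while 33 members had an unadjusted p under 0.05 by limma. The members' median change was -0.01, against 0.01 for all tested probes, and its sign differed between scalings.
Z00076439-1: ttttaagtaatttgatattttgataaggtt
Z00065532-1: tatatattgtacaatagcttgtccatttgt
Z00003912-1: agcctcagcgacactggataaagcgtggtg
Z00076439-1 went from 1.32 and 1.33 to 1.87 and 1.75, a change of 0.48 (SE 0.07, 1.40-fold, adjusted p = 0.00235 by limma). Z00074861-1, which had the largest rise in day 7 colonies, rose by 0.43 (SE 0.08, adjusted p = 0.0128 by limma), and Z00070362-1 by 0.40 (SE 0.09, adjusted p = 0.0317 by limma). Z00077267-1, with a match to GGNAANGCNTT, went from 1.86 and 1.95 to 0.95 and 1.41 and fell by 0.72 (SE 0.16, adjusted p = 0.0328 by limma). Z00065532-1 fell by 0.45 (SE 0.09, adjusted p = 0.0230 by limma) and Z00003912-1 by 0.43 (SE 0.10, adjusted p = 0.0404 by limma). Same-numbered arrays of these groups share a slide, and with the replicate number as a block 13 rose and 11 fell. Leaving out any 1 of the 4 arrays left 1 to 3 rises and 0 to 2 falls, while Agilent's processed signals gave 6 rises and 1 fall and median centring gave 0 and 0.

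Control day 3 against standard day 3 sets the same untreated subline of 2 experiments side by side, and the members were higher in the control. Of the 150, 105 rose (70%) and 13 fell (8.67%), where 29.4% of tested probes rose and 24.5% fell. At 2-fold or more 17 rose (11.3%) and 2 fell (1.33%), against 3.75% and 1.44% of tested probes. The members' median change was 0.46, against 0.02 for all tested probes, larger than the shift with LY294002 or in either colony group. It was 0.26 with Agilent's processed signals, 0.21 with Cy3 alone and 0.59 with median centring.
Z00019706-1: aaagtctcaagttacatcaaagagcagagt
Z00074134-1: ggctgaactgcacccagacatcagcagaga
Z00003769-1: cagggttttaaaaattaccagcctgtatta
Z00074494-1 went from 0.67 and 0.73 to 3.19 and 3.20, a change of 2.49 (SE 0.07, 5.63-fold, adjusted p = 1.67e-10 by limma). Z00019706-1 went from 0.39 and 0.35 to 2.76 and 2.89, a change of 2.45 (SE 0.13, 5.48-fold, adjusted p = 1.52e-08 by limma). Z00074134-1 went from 0.63 on both arrays to 2.98 and 3.06, a change of 2.39 (SE 0.07, 5.24-fold, adjusted p = 1.56e-10 by limma). With LY294002 these 3 were at 1.17 and 0.94, at 0.96 and 0.49 and at 1.05 and 0.91, against the same control arrays. Z00003769-1 went from 2.64 and 2.75 to 1.50 and 1.45 and fell by 1.22 (SE 0.09, adjusted p = 3.63e-07 by limma). Z00029220-1 fell by 1.13 (SE 0.10, adjusted p = 1.38e-06 by limma) and Z00034381-1 by 0.66 (SE 0.11, adjusted p = 0.000226 by limma). Agilent's processed signals gave 65 rises and 20 falls, Cy3 alone 68 and 27, and median centring 103 and 4. Slide, scan date, the share of probes above background (74.0% against 58.0%) and group cannot be told apart here.

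Some members have relatives on the array that were not kept. Z00076669-1 aligned with Z00075833-1 at 87.9% identity over 58 bases, with Z00030773-1 at 92.7% over 41 bases and with Z00073950-1 at 87.3% over 55 bases. Their lowest extraction ratios were 1.39 (rank 164), 0.36 (rank 2658) and 0.08 (rank 5164), so probes alike in sequence ranged from just outside the set to near the reference. Z00025747-1, with the linker motif, and Z00077267-1, with a match to GGNAANGCNTT, both aligned with Z00060976-1, at rank 311 with a lowest ratio of 1.16.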

How the data were processed

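Each array carried sample RNA in Cy3 and reference RNA in Cy5, with no dye swap, per the labels. The scanner files hold intensity values per spot (mean signal and local background) and log10 ratios of red over green, both written, per the file headers, by version 9.5.1.1 of Agilent Feature Extraction. The authors' value table holds log10 values of 25030 probes, 102 of them members. Its columns followed minus the deposited log10 ratio (r 0.99927 to 0.99997 over 14654 probes), their medians were 2.24 to 2.32, and the origin of its centring stays unknown. The 150 members were taken by minus the deposited log10 ratio, turned to log2 and centred on each array's median.

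For tests, mean intensities were corrected by normexp (offset 50) and loess in limma 3.58.1 (R 4.3.3), control spots at weight 0 and flagged outlier spots removed, and spots of a probe were averaged. Probes with Cy3 well above background on both arrays of a group were tested (31053 of 42006, 73.9%). Group means were fitted over 14 arrays (7 residual and 5.33 prior degrees of freedom), two-sided, with Benjamini-Hochberg adjustment. The group-means fit was tried on simulated log ratios, and background correction, normalization and the filter were not part of that trial. The number of arrays limits the precision. Sequences were compared with BLAST+ 2.17.0.

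Named members were the 6 with the highest lowest ratio, those at the rank limit, up to 3 rises and 3 falls per comparison with arrays apart, the 4 steadiest and 4 most variable, the 3 brightest and the 3 most like the median profile. Members of shared-sequence sets and motif matches were named after their values were seen. Members and lists were chosen with earlier results of these data known. Same-numbered arrays of standard day 3 and passage 10 share slides per the file headers and deviated together (r = 0.254). Alternatives were other scalings, the value table, Cy3 alone (quantile), other filters, slide as a random block, 2 groups only, the replicate block and each array left out.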

Additional observations from a re-analysis of the deposited data

Results flagged for a closer look

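RA acted for 48 h on MC1-ZE3 and for longer in the colony groups, and for many members the change against the own baseline differed between the times, by a limma test of the difference (adjusted p under 0.05). From 48 h to day 4 colonies the change was more positive for 50 members and more negative for 33, with a median difference of 0.11 on the log2 scale. Over all tested probes the shares were 17.7% and 21.0%, so the 33 more negative of 150 members were near the share of all probes. From 48 h to day 7 colonies it was more positive for 63 members and more negative for 26, with a median difference of 0.23, where the shares over all tested probes were 20.6% and 22.2%. Line, baseline, slide and scan date differ between these contrasts and cannot be told apart from time.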

How the results depend on the processing

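Of 458 alternatives for the 36 named changes, 425 kept direction and call, 33 kept direction but lost the call, all of these in passage 10, and 0 reversed; 30 of the 36 kept their call throughout. Z00076439-1 lost its call under 1 alternative, median centring, and the other named passage 10 members under 6 or 7 each. Of 163 alternatives for the counts of members, 126 stayed within 1.5 times. Of the 102 members in the authors' value table, 29 rose with RA 48 h, 13 rose and 40 fell with LY294002, 45 rose and 19 fell in day 4 colonies, 40 rose in day 7 colonies, 0 fell in passage 10, 48 rose and 8 fell in control against standard day 3, and 94 varied among groups. With median centring 49 fell with LY294002, 45 rose and 17 fell in day 4 colonies, 7 fell in day 7 colonies, 0 rose and 0 fell in passage 10, and 4 fell in control against standard day 3. With Agilent's processed signals 55 fell with LY294002, 33 fell in day 7 colonies, 1 fell in passage 10, and 65 rose and 20 fell in control against standard day 3. With Cy3 alone 8 rose in passage 10, and 68 rose and 27 fell in control against standard day 3. With only the 2 groups in the fit 3 rose and 2 fell in passage 10. With the replicate block 13 rose and 11 fell in passage 10, and the block moved no other count by over 1.5 times. Without a replicate, 1 to 3 rose and 0 to 2 fell in passage 10. At 2-fold, the 2 falls in day 7 colonies became 1 without day 7 replicate 1, and those in control against standard day 3 became 1 without standard day 3 replicate 1. The cause was not tested, except that the value table holds fewer members. With median centring the median change of all probes for LY294002 was 0.12, against 0.00. Ranked by loess ratios in place of extraction ratios, 79 of the 150 would be kept. With 100 or 200 members kept, the share that fell with LY294002 was 60% or 54%, and the share that rose in control against standard day 3 was 70% or 66.5%. Members were dim in Cy5, and the part of this in their ratios was not tested.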
